A study of Mus musculus with 11 samples.

Results

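Cell lines grown from a splenic tumor of mouse F326 and from a peritoneal tumor of mouse F361 were compared with lines grown from ovaries of OvTrpMyc mice, across all genes. They are 2 of the 11 lines of the series and its only lines from a tumor outside the gynecologic tract. The comparison was with the 5 ovary lines of libraries 1 to 7, the set that also holds both tumor libraries, and these 7 lines came from 5 mice. Mouse F364 gave the ovary lines F364 ROV and F364 LOV, and mice F326, F319, and F318 gave 1 each, F326 ROV, F319 ROV, and F318 ROV, with ROV and LOV written as in the titles. Where 5 ovary values are listed, they follow that order. Sample titles and the numbering of the libraries decided which lines were compared.

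All 7 lines carried the same Ovgp1-Trp53-R270H-Myc genotype, in which the Ovgp1 promoter, active in oviduct epithelium, drives the R270H mutant of p53 together with Myc. All were cultured without treatment in RPMI 1640 and were labelled as ovarian cancer. Cells were minced out of an excised ovary, its fallopian tube included, or out of a visible tumor, and were not sorted. Each line gave 1 library, so a tumor line stands for 1 dissection of 1 mouse. F326 was the only mouse with a line on both sides. The study's methods state that the F361 line no longer expressed the mutated p53 copy.

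In the ovary, factors such as GATA4, NR5A1, FOXL2, and WT1 maintain gonadal cell identity. Whether the splenic and peritoneal tumors came from an ovary was not tested. Proliferating cells transcribe a common program for DNA replication and mitosis. Many of its promoters hold a CCAAT box, which binds NF-Y, and a cell cycle genes homology region (CHR), which binds the DREAM and MuvB complexes. Developmental regulators expressed in the embryonic mesenchyme of the spleen include TLX1 and BARX1.

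The promoters of Ccnb2, Cdk1, Ube2c, and Kif22 are shown because these mitotic genes were below every ovary line in both tumor lines and their start regions carry at least 1 of these motifs. Each run gives the 130 bases before the transcription start, 5′ to 3′ on the gene's strand, from RefSeq on GRCm38.p6. Capitals mark CCAAT and TTTGAA on either strand, so that ATTGG and TTCAAA are their reverse complements.
Ccnb2, chr9:70421555-70421684, minus strand: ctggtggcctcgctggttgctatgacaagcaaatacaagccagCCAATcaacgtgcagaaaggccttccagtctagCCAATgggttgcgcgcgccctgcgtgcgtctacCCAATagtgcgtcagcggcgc
Cdk1, chr10:69352913-69353042, minus strand: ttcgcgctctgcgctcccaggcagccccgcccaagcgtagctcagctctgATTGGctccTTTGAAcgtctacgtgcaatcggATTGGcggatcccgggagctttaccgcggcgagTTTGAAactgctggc
Ube2c, chr2:164769799-164769928, plus strand: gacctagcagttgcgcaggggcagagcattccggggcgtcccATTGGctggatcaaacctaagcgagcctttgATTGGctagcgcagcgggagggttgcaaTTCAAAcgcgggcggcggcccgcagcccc
Kif22, chr7:127042421-127042550, minus strand: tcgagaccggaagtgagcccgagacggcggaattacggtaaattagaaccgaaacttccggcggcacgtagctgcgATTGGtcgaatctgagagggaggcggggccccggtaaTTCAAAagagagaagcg
Cdk1 held 2 matches to each motif in this stretch, Ube2c 2 CCAAT boxes and 1 CHR, Kif22 1 of each, and Ccnb2 3 CCAAT boxes. Over the full windows of 300 bases, 14 of 29 promoters of the cell cycle list described below (48.3%) held both motifs, against 4.81% of the promoters of all genes tested. A match is only a description of these letters.

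The 7 libraries held 13580525 to 22333181 counts, and levels are given as CPM, counts per 1000000 counts of the library, scaled by TMM factors, which set the bulk of genes level between libraries. Genes typical of skeletal muscle fibers took 12.2% of the counts in the splenic and 15.0% in the peritoneal tumor line, against 7.96% to 14.5% in the ovary lines. The mean difference was 0.88 percentage points (exact two-sided permutation test over 21 splits, p = 0.667, smallest possible 0.0476). In libraries 8 to 11 this share was 0.192% to 1.32%, so the whole set of libraries 1 to 7 stands apart. Y-linked genes, foreign to lines from female organs, were at 174 and 170 CPM of total counts in the tumor lines and at 128 to 162 CPM in the ovary lines, while Xist was at only 1.34 CPM in the peritoneal line and 0.406 CPM in F364 ROV. The part of this muscle and Y-linked signal in the results below was examined only by fits that hold it as a covariate or leave these genes out, and all of these called 0 genes at an adjusted p under 0.05, with 1636 genes at an unadjusted p under 0.05 without these genes, 1823 with the muscle and 1179 with the Y-linked covariate (edgeR).

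The label of ovarian cancer was checked against markers of epithelial carcinoma. These were low in most of the 7 lines. Pax8, the Müllerian lineage factor, had 0 counts in both tumor lines and 2, 0, 2, 68, and 0 counts in the ovary lines, and the adhesion molecule Epcam had 0 counts in the splenic line, 12 in the peritoneal line, and 0, 0, 6, 4, and 0 in the ovary lines. The keratin Krt8 was at 0.680 and 0.709 CPM, above 4 ovary lines at 0.135 to 0.273 CPM and below F319 ROV at 47.988 CPM. Of 13 tested epithelial genes, 1 was above and 4 below all ovary lines in the splenic line, and 4 were above and none below in the peritoneal line, against 23.4% above and 20.3% below over all genes in the splenic and 23.3% and 25.8% in the peritoneal line. In the latter, Krt5 and Krt14 of stratified epithelium were at 52.0 and 42.2 CPM. The mesenchymal collagen Col1a1 was at 2414 CPM in the splenic and 379 CPM in the peritoneal line (ovary 37.1 to 4634 CPM). Lymphoid cells of the spleen gave little signal, since the pan-leukocyte Ptprc stood at 1.09 and 2.05 CPM, and the B and T cell genes Cd79a and Cd3e did not exceed 0.157 CPM in either tumor line. The lymphocyte list summed to 4.62 CPM in the splenic line, 80.1 CPM in the peritoneal line, 69.2 CPM in F326 ROV, and 3.41 to 10.3 CPM in the other ovary lines, and nearly all of the peritoneal sum was the immunoglobulin gene Ighm, at 77.2 CPM. Of 21 tested myeloid and erythroid genes, however, 11 were above all ovary lines in the splenic line (23.4% of all genes were) and 3 in the peritoneal line (23.3% of all genes), with the hemoglobin gene Hbb-bs at 594 CPM and the lysozyme gene Lyz2 at 83.8 CPM in the splenic line against 32.8 to 416 CPM and 18.3 to 45.6 CPM. The part of these cells in the splenic results was not tested.

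Across 16299 genes tested, edgeR's quasi-likelihood fit put 0 (0%) past an adjusted p of 0.05 between the tumor and ovary lines, and the lowest adjusted p was 0.155. At an unadjusted p under 0.05, 516 genes were higher (3.17%) and 1120 lower (6.87%) in the tumor lines. DESeq2, run on the same counts, called 346 genes (2.19%), 14 higher (0.0887%) and 332 lower (2.10% of 15791), and 344 of these had an unadjusted edgeR p under 0.05. Neither tumor line overlapped any ovary line for 1144 genes that were higher in both (7.02%) and 1602 that were lower (9.83%), 16.8% in all. With CPM of total counts the same numbers were 698 and 2064. With upper quartile factors the unadjusted calls were 828 higher and 942 lower, with the median of all genes at 0.10 on the log2 scale instead of 0.02, so the balance of directions depended on scaling. It also depended on single lines, with 824 higher and 764 lower without the peritoneal line, 292 and 1299 without the splenic line, 895 and 1247 without F326 ROV, 267 and 977 without F319 ROV, and 292 and 903 without F364 LOV. In simulated counts of this design the test found 32% of genes changed 4-fold and 98% of genes changed 16-fold. Changes were simulated only in genes with a mean of at least 5 CPM. Each group was given a common level per gene, and no lines shared a mouse, so these shares do not carry over to the real counts. There, edgeR did not call even Col4a6, whose ovary mean was 179-fold the tumor mean. The 12 lower genes with the strongest separation all had an adjusted p of 0.155 in edgeR and were all called by DESeq2, so they are described by their values and not as established changes. In bulk libraries, fewer cells of a type and less RNA per cell cannot be told apart.

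**Figure D1:**
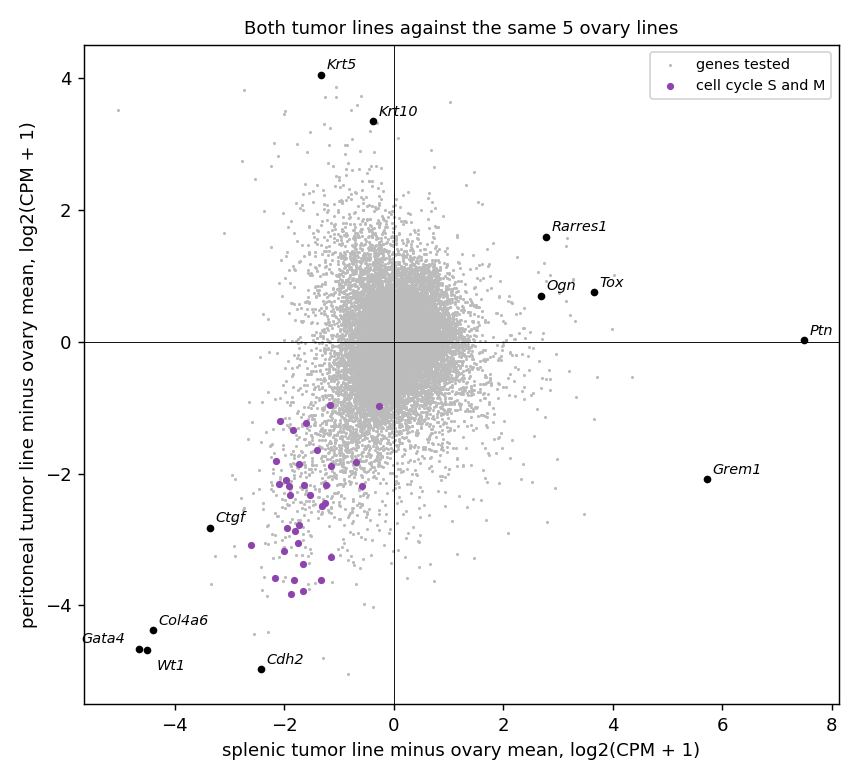
Difference of log2(CPM + 1) from the mean of the 5 ovary lines for the splenic tumor line (horizontal) and the peritoneal tumor line (vertical), each point 1 of 16299 genes. Both axes share the same ovary lines. The purple cell cycle genes lie below 0 on both axes, Ptn and Grem1 stand out on the splenic axis, and Krt5 and Krt10 on the peritoneal axis.

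Genes of DNA replication and mitosis were the most uniform group. Of 33 tested members of a list of S-phase and mitotic genes, 30 (90.9%) were below every ovary line in both tumor lines, against 9.83% of all genes, and none was above. All 33 were lower by the fit, 32 at an unadjusted p under 0.05, and 28 were called by DESeq2. The median difference was -2.04 on the log2(CPM + 1) scale, -1.73 for the splenic and -2.32 for the peritoneal line, against 0.02 over all genes tested. Adjusted p-values from edgeR ran from 0.155 to 0.522.

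Ccnb2, the mitotic cyclin B2 (chr9:70407692-70421547), was at 3.54 CPM in the splenic line (95% Wilson interval 2.70 to 4.64, counting error only) and 2.36 CPM in the peritoneal line. The ovary lines were at 17.7, 13.6, 16.2, 15.2, and 16.7 CPM. The groups did not overlap, and the ovary mean was 5.39-fold the tumor mean (log2 difference -2.42 ± 0.31 SE, edgeR adjusted p = 0.155).

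Cdk1, the kinase that drives entry into mitosis, was at 8.70 and 7.87 CPM in the tumor lines. It was at 46.2, 45.6, 23.9, 32.4, and 42.9 CPM in the ovary lines. Ube2c, which works with the anaphase-promoting complex, was at 9.04 and 11.7 CPM against 33.3 to 51.8 CPM. For both genes the tumor lines lay together and F326 ROV was the lowest ovary line.

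The proliferation marker Mki67 was at 16.3 CPM in the splenic and 3.46 CPM in the peritoneal line. Ovary values were 62.5, 75.3, 34.3, 58.9, and 101 CPM, above both. The replication helicase subunit Mcm5 was at 10.1 and 5.04 CPM against 22.004 to 58.1 CPM. The checkpoint kinase Bub1 was at 3.54 CPM in the splenic line and only 0.315 CPM in the peritoneal line, against 6.61 to 23.6 CPM.

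The peritoneal line was the lower of the tumor lines for 28 of the 33 genes, and F326 ROV was the lowest ovary line for 29. Summed over the list, the splenic line held 368 CPM and the peritoneal line 229 CPM, F326 ROV 710 CPM, and the other ovary lines 1103 to 1340 CPM. The 3 genes that overlapped were Pcna, the replication clamp, Mcm7, a further helicase subunit, and Tyms, which makes thymidylate. In each of them the splenic line was above F326 ROV, as with Pcna at 46.3 against 40.4 CPM. With the muscle share as a covariate 32 members had an unadjusted p under 0.05, and with the Y-linked share 31. Without the peritoneal line 25 did. With mouse as a fixed term, where only the F326 pair informs the difference and only the F364 pair its spread, 16 did.

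**Figure D2:**
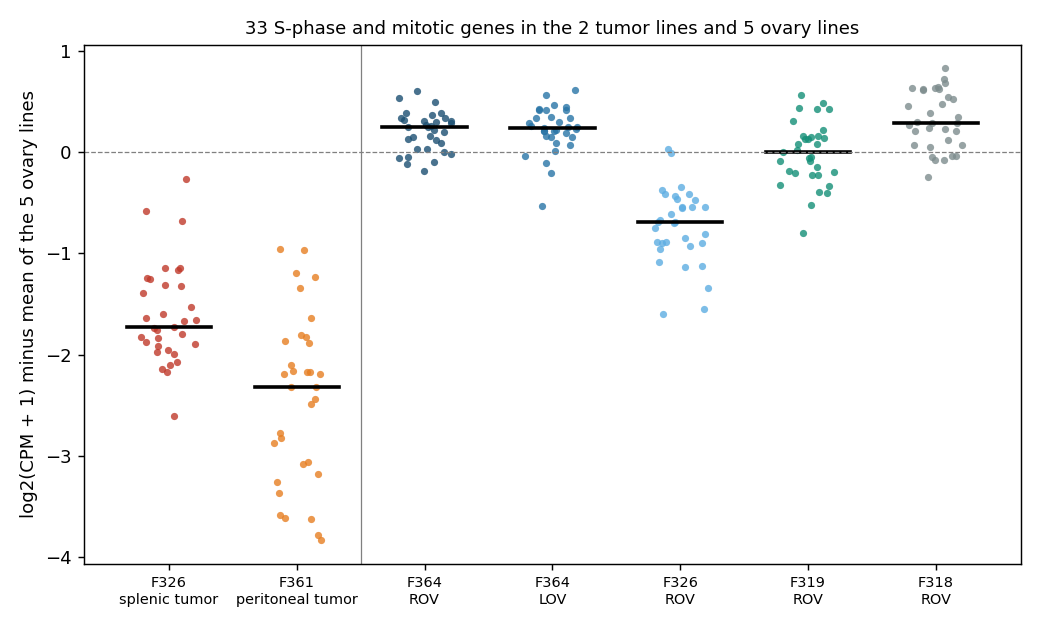
Each point is 1 of 33 S-phase and mitotic genes, as log2(CPM + 1) minus the mean of the 5 ovary lines, with the median of each line as a bar. The tumor lines had medians of -1.73 and -2.32, and F326 ROV, at -0.69, was the lowest of the ovary lines.

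Regulators of entry into the cycle gave a mixed picture. Of 19 tested G1 cyclins, kinases, and inhibitors, 5 (26.3%) were below all ovary lines in both tumor lines and none above, against 9.83% and 7.02% of all genes. Ccnd1, cyclin D1, was at 23.7 and 7.72 CPM against 58.7 to 88.0 CPM, and the pocket protein gene Rbl1 was at 3.81 and 3.31 CPM against 8.66 to 14.2 CPM. Ccnd2, Cdk2, and Cdk6 were the others. Inhibitors overlapped: Cdkn1a was at 210 CPM in the splenic and 18.2 CPM in the peritoneal line, within an ovary range of 16.5 to 715 CPM.

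Myc, the second gene of the transgene, was at 23.9 CPM in the splenic line and 7.40 CPM in the peritoneal line. Its ovary values were 56.9, 54.1, 32.2, 50.4, and 77.6 CPM, all above both (log2 difference -1.79 ± 0.51 SE, edgeR adjusted p = 0.387, called by DESeq2). Reads of the transgene and of the endogenous gene were not separated. The peritoneal line is the F361 line, which by the study's methods no longer expressed the mutated p53 copy. What part this had in its Myc and p53 target values was not tested. Of 30 tested genes of the Myc network, 4 were below (13.3%) and 2 above (6.67%) all ovary lines, near the 9.83% and 7.02% of all genes. In the peritoneal line alone 17 were below, against 25.8% of all genes, and in the splenic line 6, against 20.3%. The nucleolar Nolc1 was at 61.8 and 50.3 CPM against 65.6 to 146 CPM. Trp53 lay within the ovary range, at 17.3 and 17.0 CPM against 11.2 to 21.3 CPM. Of 27 tested p53 targets, 3 were below all ovary lines in both tumor lines (11.1%) and none above.

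Several transcription factors of the gonad, Gata4, Nr5a1, Foxl2, and Wt1, were at or near 0 counts in both tumor lines and were detected in each of the 5 ovary lines compared. The splenic and peritoneal lines had no count of Gata4, Nr5a1, or Foxl2, and 2 and 0 counts of Wt1. Low counts were not particular to the tumor lines in the whole series. In the ovary lines of the other library set, F339 ROV had 1328 counts of Gata4 but 0 of Nr5a1, Foxl2, and Wt1, and F318 LOV had 181 of Gata4, 2 of Nr5a1, 0 of Foxl2, and 134 of Wt1. Of 23 tested genes of ovarian stroma and gonad, 6 (26.1%) were below all 5 ovary lines in both tumor lines and 1 (4.35%) above. Over all genes these shares were 9.83% and 7.02%. All 6 genes below had an unadjusted p under 0.05. This last count was 1 with limma voom and 10 with 1 library per mouse. The median of the list was -0.68 on the log2(CPM + 1) scale. DESeq2 called 5 of the 6, all but Star.

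Gata4, required for gonad formation (chr14:63198922-63271692), had 1150, 625, 1339, 218, and 48 counts in the ovary lines. These were 77.8, 42.6, 90.4, 8.89, and 2.27 CPM. Its ovary mean was at least 188-fold higher than the floor of 3 counts, which is 0.236 CPM in the shallower tumor library, while the lowest ovary line was at least 9.61-fold above it. The fit gave an edgeR adjusted p of 0.301.

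Wt1, a factor of coelomic epithelium and its derivatives (chr2:105126529-105173616), was at 70.0, 6.13, 67.9, 66.2, and 3.78 CPM in the ovary lines. Its ovary mean was at least 181-fold above the same floor. Nr5a1, steroidogenic factor 1, was at 0.326 to 38.8 CPM, with F319 ROV lowest at 8 counts. Foxl2, which maintains granulosa cell fate, was at 0.652 to 7.71 CPM, with 10 counts in F364 LOV. The last of these values show that separation from the lowest ovary line rested on few counts.

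Emx2, a homeobox gene of the urogenital ridge, was detected everywhere, at 3.13 and 1.89 CPM in the tumor lines. In the ovary lines it was at 19.2, 11.3, 24.4, 18.7, and 7.001 CPM (log2 difference -2.68 ± 0.57 SE, edgeR adjusted p = 0.248). Star, which moves cholesterol into mitochondria for steroid synthesis, was at 2.18 and 1.89 CPM against 3.50 to 49.3 CPM. Members that overlapped included Gata6 at 6.87 and 1.26 CPM against 3.64 to 57.4 CPM, and Wnt4 at 87.8 and 42.4 CPM against 36.6 to 131 CPM.

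F326 ROV, from the same mouse as the splenic line, had the highest Gata4, Nr5a1, and Star of the ovary lines, while both tumor lines were below all ovary lines in them. Mesothelial genes were mostly set by F319 ROV: Msln was at 118 CPM there and at 0.675 to 3.25 CPM in the other ovary lines, against 0.272 and 0.472 CPM in the tumor lines. Of 19 tested mesothelial genes, only Msln and Wt1 were below all ovary lines in both (10.5%, against 9.83% of all genes).

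**Figure D3:**
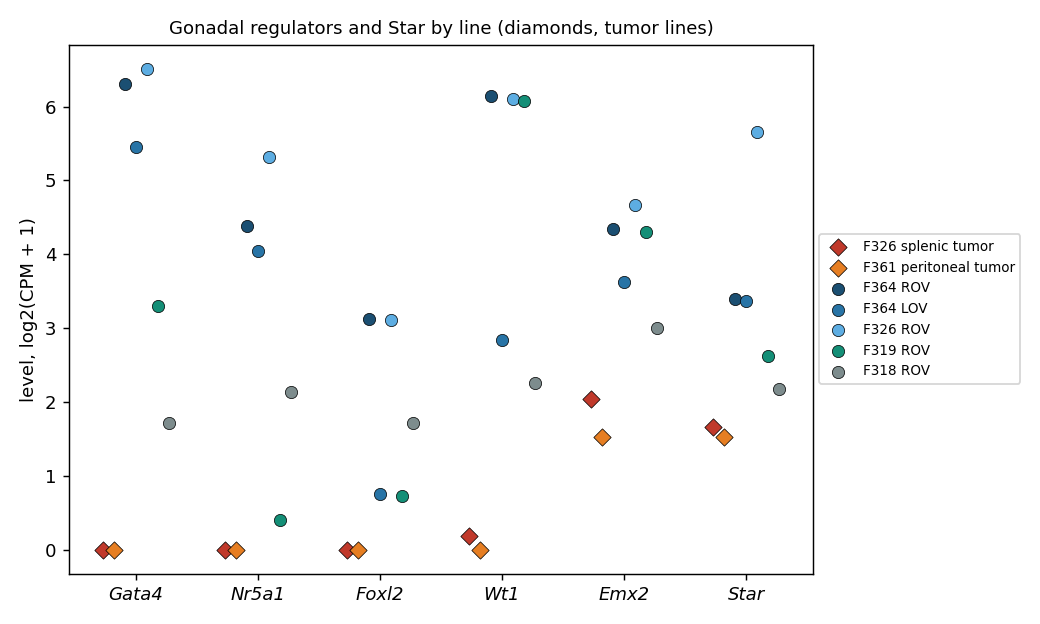
Level of each gene as log2(CPM + 1) in the 2 tumor lines (diamonds) and 5 ovary lines (circles). The diamonds of Gata4, Nr5a1, and Foxl2 lie at 0, and for all 6 genes both diamonds are below every circle.

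Ctgf, a secreted matricellular protein and common target of the YAP and TEAD regulators, gave the lowest p-value of all genes. It was at 31.3 CPM in the splenic and 45.7 CPM in the peritoneal line. In the ovary lines it was at 381, 238, 351, 309, and 394 CPM, so that their mean was 8.69-fold higher (log2 difference -3.12 ± 0.35 SE, edgeR adjusted p = 0.155). limma voom called this gene and no other.

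Of 28 tested basement membrane and integrin genes, 8 (28.6%) were below all ovary lines in both tumor lines and none above, against 9.83% and 7.02% of all genes. Col4a6, a chain of collagen IV (chrX:141165403-141474076), had 2 counts in each tumor line. It was at 32.8, 21.4, 26.7, 42.3, and 7.85 CPM in the ovary lines, at least 33.2-fold above the floor of 3 counts even in the lowest. Without F318 ROV, that lowest line, it alone passed the adjusted p threshold in edgeR. Col4a1, the main collagen IV chain, was at 167 and 115 CPM against 352 to 1122 CPM, and its partner Col4a2 was at 143 and 89.5 CPM against 262 to 648 CPM. The integrin subunit Itga3 was at 12.9 and 7.32 CPM against 15.9 to 74.2 CPM. The list's median was -0.68 on the log2(CPM + 1) scale, and the Y-linked share as a covariate lowered its members at an unadjusted p under 0.05 from 8 to 5.

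Cdh2, N-cadherin, was at 10.3 CPM in the splenic line and 0.945 CPM in the peritoneal line. Ovary values were 76.1, 92.4, 56.8, 38.5, and 50.2 CPM, well above both. Vim, the mesenchymal intermediate filament, was at 391 and 229 CPM against 634 to 1061 CPM. Loxl2, which cross-links collagen, was at 30.1 and 14.1 CPM against 79.9 to 208 CPM. The receptor kinase Axl was at 103 and 44.4 CPM against 149 to 350 CPM, and Epha2 at 11.1 and 7.40 CPM against 27.5 to 112 CPM. Of 24 tested mesenchymal genes, 4 were below (16.7%) and 1 above all ovary lines, against 9.83% and 7.02% of all genes. Of 31 cell adhesion and cadherin genes 4 were below (12.9%) and 1 above, and of 26 matrix proteases and inhibitors 2 were below (7.69%) and 1 above, so these examples do not describe the whole lists. Of 30 receptor kinases 4 were below (13.3%) and 1 above (3.33%).

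Signaling lists are given against shares over all genes of 9.83% below and 7.02% above. Gdnf, a neurotrophic ligand, was at 1.22 and 0.472 CPM against 2.53 to 11.98 CPM, and Tgfa, a ligand of the EGF receptor, at 0.136 and 0.551 CPM against 1.69 to 6.68 CPM. Of 30 tested growth factors, 3 were below all ovary lines and none above. In the TGF-beta and BMP list 6 of 40 tested genes were below (15.0%) and 3 above (7.5%). In the hypoxia and glycolysis list 5 of 29 were below (17.2%) and 1 above (3.45%), the glucose transporter Slc2a1 at 19.7 and 11.7 CPM against 20.05 to 89.1 CPM being among those below.

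**Figure D4:**
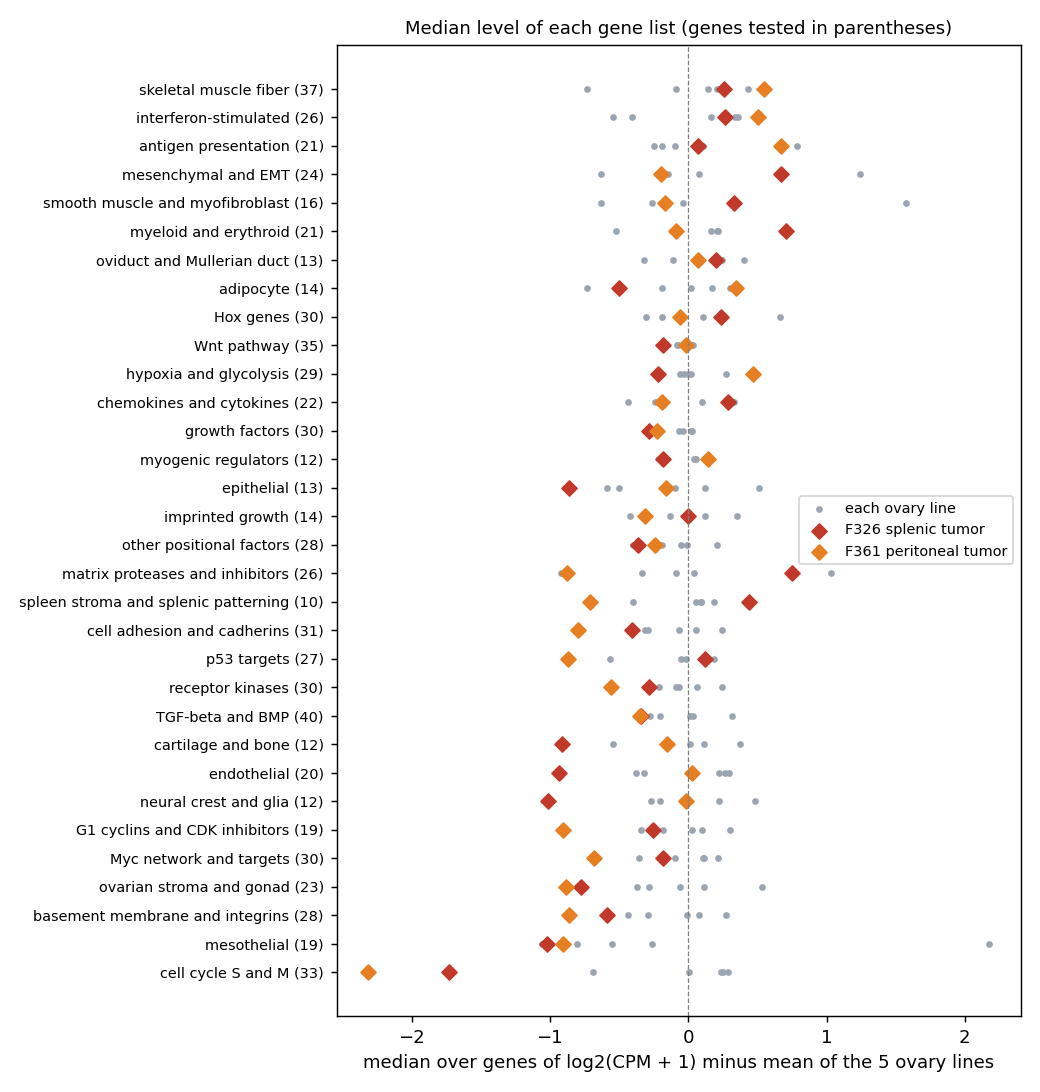
Median over the tested genes of each list of log2(CPM + 1) minus the ovary mean, for the splenic (red) and peritoneal (orange) tumor lines and each ovary line (gray). Lists with at least 10 tested genes are shown. The cell cycle list is the one in which both tumor lines lie furthest from the gray points.

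Fewer genes were higher in both tumor lines. Tox, a chromatin-binding factor best known in T cells, was at 14.8 CPM in the splenic line (95% Wilson interval 12.9 to 16.9) and 1.10 CPM in the peritoneal line. The ovary lines were at 0.271, 0.409, 0.135, 0.163, and 0.284 CPM. The groups did not overlap, though the tumor lines differed from each other more than the peritoneal line differed from ovary (log2 difference 4.95 ± 0.84 SE, edgeR adjusted p = 0.202).

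Rarres1, a retinoic acid-responsive gene, was at 8.70 and 3.23 CPM against 0.136 to 0.810 CPM. The small leucine-rich proteoglycans Ogn and Aspn, which bind collagen, were both higher. Ogn was at 107 and 26.3 CPM against 12.5 to 20.6 CPM, and Aspn at 42.1 and 13.4 CPM against 4.06 to 10.2 CPM. Ctsk, a collagen-degrading protease of osteoclasts and fibroblasts, was at 16.5 and 12.3 CPM against 3.86 to 7.09 CPM.

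Igfn1 and Csrp3, genes of striated muscle, were also in this group, Csrp3 at 156 and 127 CPM against 43.3 to 78.3 CPM. Of 37 tested muscle fiber genes, 4 (10.8%) were above all ovary lines in both tumor lines and none below, against 7.02% and 9.83% of all genes. The mitochondrial genes Etfb and Ndufb4 and the little-known Tmem256 differed by less, with log2 differences of 0.93, 1.001, and 0.84. Etfb was at 61.1 and 44.6 CPM against 23.3 to 30.9 CPM. The remaining 2 of the 12 leading genes, Hmgb1-ps8 and Atp5l2-ps, are pseudogenes that may share reads with their parent genes and are uncertain. These 12 had edgeR adjusted p-values of 0.202 to 0.328, and DESeq2 called 9 of them.

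The splenic line alone was above all ovary lines for 3809 genes (23.4%) and below for 3305 (20.3%), with 0 genes at an adjusted p under 0.05 in edgeR and 111 called by DESeq2. At an unadjusted p under 0.05, 804 genes were higher (4.93%) and 719 lower (4.41%), 9.34% in all. DESeq2 gave 555 higher and 1142 lower at this threshold, and edgeR without F319 ROV 489 and 544, so neither direction led throughout. A single line carries no estimate of its own spread, which the fit takes from the ovary lines. The gene furthest above ovary was Ptn, the secreted growth factor pleiotrophin, while of 30 tested growth factors 7 were above all ovary lines in this line, no more than the share of all genes. Ptn (chr6:36714929-36810220), was at 765 CPM (95% Wilson interval 751 to 780), against 0.541, 2.86, 3.04, 2.85, and 13.7 CPM in the ovary lines and 3.31 CPM in the peritoneal line.

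Grem1, a BMP antagonist, was at 292 CPM against 0.270 to 31.2 CPM in the ovary lines. Fgf10, a mesenchymal ligand that acts on epithelium, was at 10.8 CPM against 0 to 0.473 CPM. Rspo2, which amplifies Wnt signaling, was at 11.8 CPM against 0 to 1.14 CPM. The collagen-binding integrin Itga11 was at 168 CPM against 2.52 to 35.0 CPM. For Ptn, Grem1, and Itga11, the peritoneal line lay within the ovary range, so the 2 tumor lines were not alike in them.

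Agtr2, an angiotensin receptor, had 217 counts in the splenic line and 0 in each of the other 10 lines of the series. Tlx1 (chr19:45150680-45156943) had 14 counts, or 0.952 CPM (95% Wilson interval 0.567 to 1.60), and Barx1 (chr13:48662998-48666507) had 38 counts, or 2.58 CPM (1.88 to 3.55). Both had 0 counts in the other 10 lines. They were picked after their values were seen. Like Agtr2, they were not tested by edgeR, because its filter keeps no gene with counts in 1 library only. DESeq2 did not call Agtr2 between both tumor lines and ovary (adjusted p = 0.256). Of the 10 tested members of the spleen stroma and patterning list, 4 were above and 2 below all ovary lines in the splenic line, against 23.4% and 20.3% of all genes, Wt1 being among those below. Where a library has 0 counts, a level of up to 3 counts is allowed, or 0.111 to 0.221 CPM of total counts. Nkx3-2, another factor of splenic mesenchyme, had 8 counts in the splenic line, but 22 in F318 LOV. Cxcl12, a stromal chemokine, was at 841 CPM against 157 to 414 CPM.

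The splenic line's lowest genes relative to ovary included Ctgf, the cytokinesis genes Cep55 and Ect2, and the kinetochore gene Cenpf. Cep55 was at 1.63 CPM against 10.5 to 18.7 CPM. The junctional protein F11r was at 13.5 CPM against 50.9 to 102 CPM, and the adhesion molecule Mcam at 16.1 CPM against 59.9 to 110 CPM. Of 20 tested endothelial genes, 14 were below all ovary lines in this line (20.3% of all genes were) and 2 in the peritoneal line (25.8% of all genes), with VE-cadherin (Cdh5) at 15.0 CPM against 26.1 to 126 CPM and 81.1 CPM in the peritoneal line.

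Set against F326 ROV, from the same mouse, 306 genes were at least 4-fold higher in CPM + 1 in the splenic line (1.88% of genes tested) and 510 at least 4-fold lower (3.13%), with no test for a pair of single libraries. The cell cycle list had a median of -0.93 for this pair, with 30 of 33 genes lower in the splenic line. Spearman's rank correlation of levels over all genes tested was 0.907 between them, the lowest of the splenic line with any ovary line. Its highest was 0.941, with F364 ROV. Genes are not independent replicates, so these correlations only describe the lines.

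The peritoneal line alone was above all ovary lines for 3793 genes (23.3%) and below for 4212 (25.8%), with 0 genes at an adjusted p under 0.05 in edgeR and 470 called by DESeq2. At an unadjusted p under 0.05, 265 genes were higher (1.63%) and 1265 lower (7.76%), 9.39% in all. This split rested on F326 ROV, without which 1442 were higher and 1661 lower, while without F319 ROV 107 were higher and 1040 lower, without F364 LOV 128 and 1007, and without F364 ROV 142 and 1063. The split also depended on scaling, since with RLE or upper quartile size factors a larger part of the genes at this threshold was higher. Of the 12 genes furthest above ovary, 9 were keratins or other genes of stratified epithelium, and the others were Ccl7, Aplnr, and Anxa8. Krt5, the basal keratin (chr15:101707070-101712898), was at 52.0 CPM (95% Wilson interval 48.2 to 56.2). The ovary lines were at 1.83, 0.614, 19.03, 2.32, and 0.0946 CPM, and the splenic line at 0.272 CPM.

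Krt10 and Krt1, keratins of differentiating epidermis, were at 48.2 and 18.6 CPM. The desmosomal Dsp was at 22.05 CPM against 0.189 to 5.80 CPM, and the epidermal secreted protein Dmkn at 26.5 CPM against 0.0946 to 5.67 CPM. For 9 such genes (Krt5, Krt15, Krt77, Krt1, Krt10, Dsp, Dmkn, Col17a1, and Lgals7) the next line in order was F326 ROV, which the peritoneal line exceeded 2.54-fold to 4.67-fold. The splenic line was at 0 to 2.72 CPM for them. The chemokine Ccl7 was at 35.9 CPM against 0.540 to 14.1 CPM.

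Its lowest genes relative to ovary were Cdh2, noted above, and the transcript AI506816, at 2.20 CPM against 46.7 to 147 CPM. Col4a5 was at 2.52 CPM against 37.9 to 105 CPM, while the splenic line, at 36.9 CPM, lay just under the ovary lines. Hs6st2, a heparan sulfate sulfotransferase, was at 2.36 CPM against 27.4 to 54.4 CPM, and the membrane repair gene Myof at 6.77 CPM against 63.4 to 179 CPM. In Hs6st2 the splenic line was inside the ovary range. Mitotic genes made up 6 of the 12 lowest, among them the kinesin Kif11 at 1.26 CPM against 17.5 to 35.3 CPM.

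The peritoneal line resembled F326 ROV most, with a rank correlation of 0.957, the highest between a tumor and an ovary line, although they came from different mice. The 2 tumor lines correlated at 0.911, within the 0.870 to 0.957 of tumor lines with ovary lines. Of 21 tested antigen presentation genes, 11 were above all ovary lines in the peritoneal line (23.3% of all genes were) and 2 in the splenic line (23.4% of all genes). Medians of the 19 autosomes stayed within -0.128 and 0.0814 of the ovary mean on the log2 scale in both tumor lines. Single ovary lines reached -0.132 and 0.128 over all autosomes. On some chromosomes a tumor line lay outside them, as on chromosome 14, where the splenic line was at -0.118 against -0.0404 to 0.0736. The study reports ample chromosome alterations in each line. Its copy-number controls were the splenic line, F326 ROV, and the F361 tumor line, which had fewer initial calls. Medians of whole autosomes cannot show changes of part of a chromosome or changes shared with the ovary lines. Mitochondrially encoded genes were at a median of 0.37 in the splenic and 1.09 in the peritoneal line, against -1.02 to 0.54 in the ovary lines.

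Over all genes, 9.83% were below and 7.02% above all ovary lines in both tumor lines, and some other lists were at or under these shares or close to them. Of 35 tested Wnt pathway genes, none was below and 1 above all ovary lines in both tumor lines, of 30 Hox genes 2 were below and none above, and of 26 interferon-stimulated genes 2 were below and 2 above. Of 27 p53 targets, 12 were below all ovary lines in the peritoneal line, against 25.8% of all genes. In the splenic line 3 were, against 20.3%. By the study's methods, the peritoneal line no longer expressed the mutated p53 copy. The difference between the lines was not tested.

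**Figure D5:**
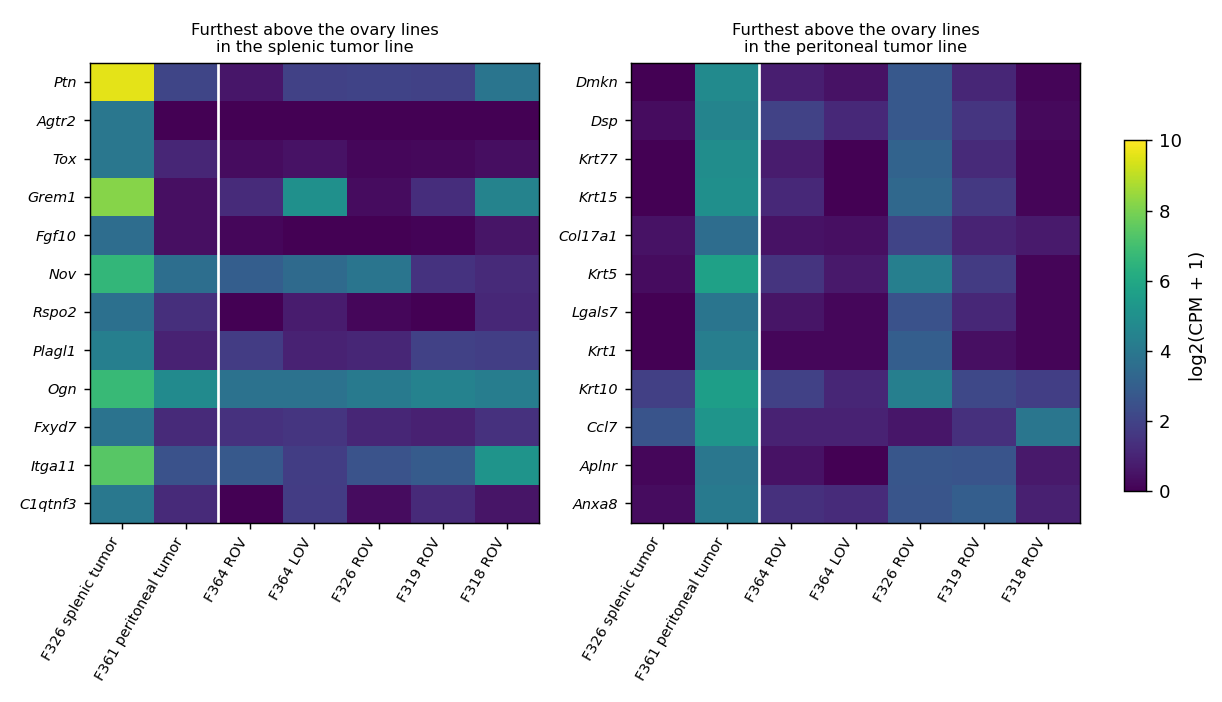
Levels as log2(CPM + 1) of the 12 genes furthest above the ovary lines in the splenic tumor line (left) and in the peritoneal tumor line (right), in each of the 7 lines. Agtr2 is at 0 in all lines but the splenic one, and the keratins of the right panel are next highest in F326 ROV.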

How the data were processed

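Polyadenylated RNA of 11 lines was sequenced as paired 150-base reads from strand-marking libraries. Per the study's methods, the authors aligned reads with RNA STAR to GRCm38 (mm10), removed PCR duplicates with SAMtools RmDup, and counted reads per gene with featureCounts. The deposited values are raw counts for 28284 gene symbols. The strand setting of the counting and tool versions are not given in the sources used here. Removing duplicates can compress the counts of very abundant genes.

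Groups came from sample titles. Counts were tested with edgeR 4.0.16 in R 4.3.3 (filterByExpr with a minimum count of 10, TMM, quasi-likelihood test, Benjamini-Hochberg adjustment, threshold 0.05), 2 tumor lines against 5 ovary lines, and each tumor line with its own term. The study's methods give no test for this comparison. Fitted log2 differences come from edgeR, and other log2 values are of CPM + 1. DESeq2 1.42.0 and limma 3.58.1 were alternatives. The fit was tested on simulated data with 50 genes at each fold. p-values measure the spread between these lines, 2 of the ovary lines sharing a mouse.

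The lines and the 34 gene lists were chosen with earlier results of these data known, so no list is independent evidence, and the muscle fiber list was written from these counts. Named genes were the 12 higher and 12 lower of lowest unadjusted p without overlap between groups and with a mean of at least 5 CPM in the higher group, because none passed the adjusted threshold, the 12 furthest above and below the ovary lines for each tumor line, with at least 10 CPM on the higher side, and list members without overlap. Muscle fiber, Y-linked, and predicted genes were counted but not named by the first 2 rules. Agtr2, Tlx1, Barx1, and Nkx3-2 counts over 11 lines, and the overlapping members given for contrast, were added after their values were seen. Gene positions are from GENCODE M21 (GRCm38) by unique symbol. No column lacked a sample. Alternatives changed the normalization, filter, tool, covariates, and lines.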

Additional observations from a re-analysis of the deposited data

Results flagged for a closer look

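In 87 sets of 5 ovary values (library measures, named genes, and list medians), the highest or lowest line was set apart from the others in 10, by a gap of more than 0.71 of the range. Chance gives about 1 in 20. The line concerned bears on the comparison with the tumor lines in each case. F318 ROV had the lowest muscle fiber share, 7.96% of counts. F326 ROV had the lowest level of Incenp, a mitotic chromosomal passenger gene, at 28.5 CPM, still above the 11.2 and 8.74 CPM of the tumor lines. Tmem256 was lowest in F364 LOV, at 32.3 CPM, and Msln was highest in F319 ROV, at 118 CPM.

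Among list medians, as log2 differences from the ovary mean, F326 ROV stood apart for the spleen stroma list at -0.40 and for hypoxia and glycolysis at 0.27. F319 ROV stood apart for the mesothelial list at 2.18. F318 ROV stood apart for smooth muscle and myofibroblast genes at 1.58 and for Y-linked genes at -0.31. F364 LOV stood apart for myogenic regulators at -0.21. Causes were not tested.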

How the results depend on the processing

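The count of 0 genes in the comparison of both tumor lines with ovary stayed at 0 with other size factors, other filters, either covariate, 1 library per mouse, and without muscle and Y-linked genes. It became 346 with DESeq2, 9 with all 11 libraries and a library set term, and 1 with limma voom, with and without mouse as a random block. The random block took a correlation within mice of -0.594, so it is no check on likeness between lines of 1 mouse. Leaving out 1 line gave 0 to 1, the 1 being Col4a6 without F318 ROV. For the splenic line DESeq2 gave 111. For the peritoneal line DESeq2 gave 470 and all 11 libraries 2, and without any 1 ovary line both stayed at 0. Genes outside the ovary range in both tumor lines numbered 2746, and 3035 to 8005 without 1 line, with 8005 left without the splenic line and 7114 without the peritoneal line, since 1 tumor line then decides. The difference in muscle share ran from -0.519 to 2.28 percentage points without 1 line, and it was negative without the peritoneal line (-0.519) or F318 ROV (-0.313).

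Of 48 genes refitted under 9 alternatives, 40 passed the adjusted threshold with DESeq2. Without 1 line, fitted log2 differences ran from -0.48 to 7.36 for Ptn, -5.12 to 4.71 for Grem1, and -1.22 to 4.13 for Itga11, negative without the splenic line. Trp53 ran from -0.18 to 0.044, positive without F319 ROV (0.017) or F318 ROV. Members lower at an unadjusted p under 0.05 numbered 16 to 33 for the cell cycle list (16 with mouse as a fixed term), 1 to 10 for the gonad list (1 with limma voom, the cause of which was not tested), and 5 to 11 for basement membrane genes, over 20 alternatives. Replicate numbers, given in accession order, pair no samples. With mouse as a replicate block the count stayed 0, with 2965 genes at an unadjusted p under 0.05, but only F326 then has lines on both sides. The block, the Y-linked covariate, the list counts, and list medians or ranges without 1 line were added after seeing the data. With 2 tumor lines and 1 library each, even 4-fold changes were mostly missed in simulated counts (32% found), and 2-fold changes nearly always (2% found).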
